A study of Mus musculus with 3 samples.

Results

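ISOM-TAL cells, the thick ascending limb cells of the inner stripe of the outer medulla, were taken as the cells that carry the cluster label ISOM-TAL and the cell type label LOH (loop of Henle) in the deposited annotation. There were 6222 of them among 181257 cells of 25 clusters, with 3230 in healthy controls, 1945 at day 28 and 1047 at day 84 after reversal of unilateral ureteral obstruction (R-UUO). The thick ascending limb takes up sodium, potassium and chloride through the cotransporter NKCC2, encoded by Slc12a1, and secretes uromodulin, encoded by Umod. Its salt transport feeds the osmotic gradient of the medulla, is costly in ATP and depends on densely packed mitochondria, in a region of the kidney where oxygen is scarce. The files used here give values per cell and not per gene, so the label could not be checked against Slc12a1 and Umod, and the expression of single genes was not analysed here.

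Single cells from male BALB/c mice were measured with the 10x Genomics Flex assay, which reads fixed RNA through pairs of gene probes and marks each pool with a probe barcode. The healthy control group had 4 pools. The other mice had the ureter clamped at 12 to 13 weeks of age, had the clamp removed after an interval set by mouse strain (5 to 7 days over all strains), lost the contralateral kidney 10 days later and were studied at day 28 (4 pools) or day 84 (2 pools). The study keeps mice with nephrectomy alone as a group apart from its healthy controls, so loss of the contralateral kidney differs between the groups compared here along with the obstruction. Each pool joined dissected medullas of 3 to 4 mice, the labels call the tissue kidney papilla, and the amount of outer medulla in a dissection sets how many ISOM-TAL cells a pool can hold. The pool was the replicate. ISOM-TAL cells shared droplet barcodes far more often within their condition than with other conditions. Of control, day 28 and day 84 ISOM-TAL cells, 55.9%, 46.5% and 25% shared theirs within the condition, against 11.7% to 12.3% with other conditions. Droplet run and condition therefore cannot be told apart, and every p-value below measures the spread between pools alone. Both time points were compared with the same 4 control pools.

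The mitochondrial share of the RNA differed widely between ISOM-TAL and the other cells after R-UUO. Mitochondrial transcripts encode subunits of the respiratory chain, and their share was computed as the mitochondrial percent of all UMIs (unique molecular identifiers, 1 for each captured probe pair) summed over the cells of a cluster. In ISOM-TAL it was 6.08%, 4.60%, 4.89% and 5.81% in the control pools, 3.54%, 1.52%, 2.78% and 1.95% in the day 28 pools, and 2.77% and 3.88% in the day 84 pools. None of the 6 pools after R-UUO reached the lowest control pool. In the other cells of the same pools it was 2.50%, 3.26%, 2.98% and 3.13% in controls, 0.303%, 0.220%, 0.137% and 0.170% at day 28, and 0.112% and 0.000448% at day 84. After R-UUO the other cells thus held few mitochondrial UMIs in the deposited counts, while ISOM-TAL held 45.8% of its control mean at day 28 and 62.2% at day 84. The authors had corrected these counts for ambient RNA. In day 84 pool 2 all 959 deepIM-CD cells were at 0, with a median of 1783 UMIs. How far the correction set the mitochondrial percents, or the cells at 0 described below, was not tested.

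**Figure D1:**
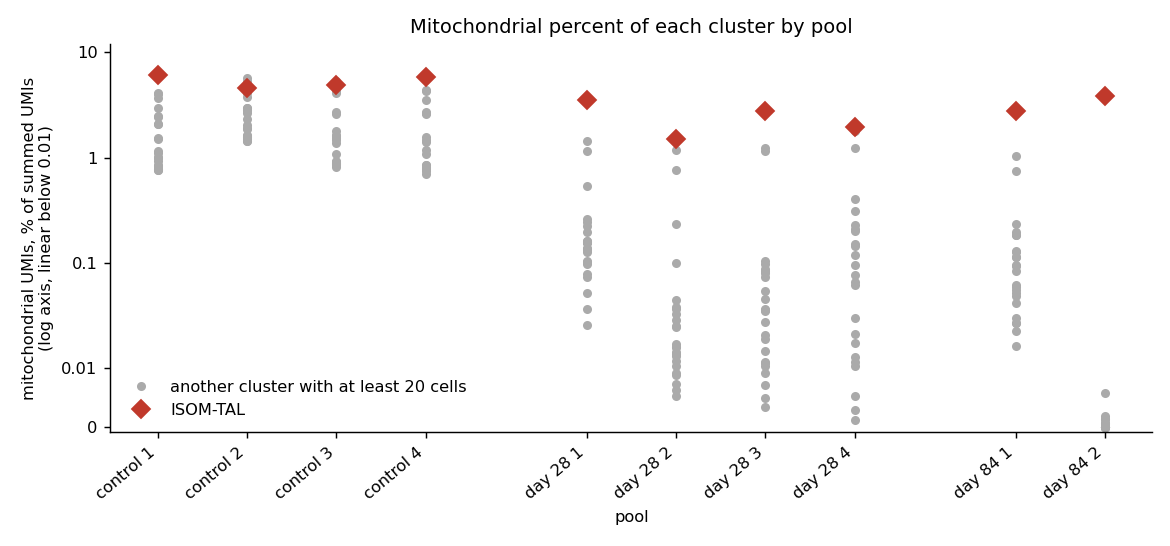
Mitochondrial UMIs as a percent of summed UMIs (log axis, linear below 0.01) for each cluster with at least 20 cells, by pool; red diamonds are ISOM-TAL and grey points the other clusters. ISOM-TAL ranked 1 to 3 in the control pools and 1 in all 6 pools after R-UUO, between 1.52% and 3.88%.

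The other clusters that could be fitted kept little of their control mitochondrial percent. The proximal tubule clusters PT-S2 and PT-S3_b, with higher percents than these at day 28, were too small in some control pools to be fitted. Their values are given below. Of the 17 clusters with at least 20 cells in every pool, the 16 other than ISOM-TAL kept 0.898% to 9.96% of their control mean at day 28 (median 3.98%) and 0.809% to 4.94% at day 84 (median 1.67%). The day 84 values average 2 unlike pools, and with pool 1 alone these clusters kept 1.56% to 9.89% (median 3.33%) and with pool 2 alone 0 to 0.184%, while ISOM-TAL kept 51.8% and 72.5%. With limma on log2(percent + 0.01), 94.1% of the 17 clusters passed an adjusted p of 0.05 at day 28 and 94.1% at day 84, and ISOM-TAL was the 1 cluster that did not pass at either time. Its difference was -1.19 at day 28 (standard error, SE, 0.696, 95% interval -2.61 to 0.24, limma adjusted p = 0.0985) and -0.69 at day 84 (SE 0.852, 95% interval -2.44 to 1.05, limma adjusted p = 0.422). In the exact permutation test of ISOM-TAL alone, which borrows no spread from other clusters, day 28 differed from control (two-sided p = 0.0286, the smallest that 4 pools against 4 can give), and day 84 gave p = 0.0667, the smallest that 2 against 4 can give. The limma call at day 28 also turned with the added constant (limma adjusted p = 0.00114 with 0.1 added, difference -1.16). All 4 day 28 pools thus lay below every control pool, while the main limma test did not pass. These tests use the same pools and are not independent of each other.

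The difference between ISOM-TAL and the cells around it was tested within each pool, as the log2 level of ISOM-TAL minus that of all other cells, a measure that was added after the values had been seen. It was higher than in controls by 2.64 at day 28 (limma adjusted p = 0.0199, SE 0.916) and by 5.68 at day 84 (limma adjusted p = 2.55e-05, SE 1.12), with no overlap between the 6 pools and the controls (exact permutation p = 0.0286 and 0.0667). Over the clusters fitted, 41.2% passed at day 28 and 58.8% at day 84, in both directions. The reference of every other cluster included ISOM-TAL, so these shares are not independent of the level of ISOM-TAL. At day 28 the call was lost without any 1 control pool and without day 28 pool 3 (differences from 2.38 to 2.89 over all pools left out, highest limma adjusted p = 0.0974), and the size at day 84 leans on pool 2, where the other cells were so near 0 that the added 0.01 sets their level. Without day 84 pool 2 the difference at day 84 was 3.67, and without day 84 pool 1 it was 7.70.

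The nearest relatives of ISOM-TAL did not share its level. OSOM-TAL_a and OSOM-TAL_b, the thick limb clusters of the outer stripe, held 0.916% to 1.92% and 0.791% to 1.49% mitochondrial UMIs in the control pools. At day 28 OSOM-TAL_a was at 0.00122% to 0.102% and OSOM-TAL_b at 0.00282% to 0.0257%. At day 84 OSOM-TAL_a was at 0.0271% and 0.00123%, and OSOM-TAL_b at 0.0224% and 0. InjuredLOH, the loop of Henle cluster named for injury, went from 0.909% to 2.94% in controls to 0.0325% to 0.229% at day 28, and was at 0.232% and 0.000568% at day 84. Thick limb identity in the annotation therefore did not go with a high mitochondrial percent after R-UUO, since in every pool both outer stripe clusters stood below ISOM-TAL. The clusters next in rank at day 28 were proximal tubule cells, PT-S2 with 1.18% to 1.80% and PT-S3_b with 0.758% to 1.23%. These proximal tubule clusters, named after their values were seen, were too small to be fitted, with as few as 1 and 8 cells in a control pool. In controls they were at 2.33% to 5.69% (PT-S2) and 4.00% to 7.86% (PT-S3_b). At day 84 they were at 1.03% and 0 (PT-S2) and 0.739% and 0.00569% (PT-S3_b).

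A cluster of a few percent of the cells carried much of the mitochondrial RNA of its pool. ISOM-TAL held 15.3%, 26.7%, 18.0% and 5.95% of the mitochondrial UMIs of the control pools. At day 28 it held 55.3%, 41.7%, 66.7% and 33.8%, and at day 84 46.2% and 99.9%. In day 84 pool 2, 692 of the 780 cells with any mitochondrial UMI were ISOM-TAL cells (88.7%), with 127885 of 128005 mitochondrial UMIs. Its part of all UMIs of the pools moved less, from 3.29% to 20.5% in controls, 4.26% to 9.56% at day 28, and 3.35% and 11% at day 84.

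Within ISOM-TAL, cells differed widely in their own mitochondrial percent. The median cell had 4.74%, 4.56%, 3.91% and 5.20% in the control pools, 3.34%, 1.15%, 2.65% and 1.09% in the day 28 pools, and 2.37% and 2.72% in the day 84 pools. Every median after R-UUO was below every control median. Cells above 5% made up 46.0%, 44.5%, 33.0% and 51.6% of ISOM-TAL in controls, 33.2%, 6.37%, 19.4% and 9.66% at day 28, and 10.9% and 27.9% at day 84. Day 28 pool 1 reached the lowest control pool in this share and the other 5 pools did not.

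In controls the upper end of these percents lay near a filter. The authors left out cells above 10% mitochondrial reads, and in controls the 95th percentile of ISOM-TAL cells lay at 8.42% to 9.52%. After R-UUO that percentile lay at 5.48% to 8.44%. In controls 6.72% to 17.6% of ISOM-TAL cells exceeded 8%, against 0.258% to 0.985% of the other cells. Of 22 deposited cells above 10%, 19 were ISOM-TAL, all of them in controls. How many ISOM-TAL cells the filter removed, and from which condition, was not tested.

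**Figure D2:**
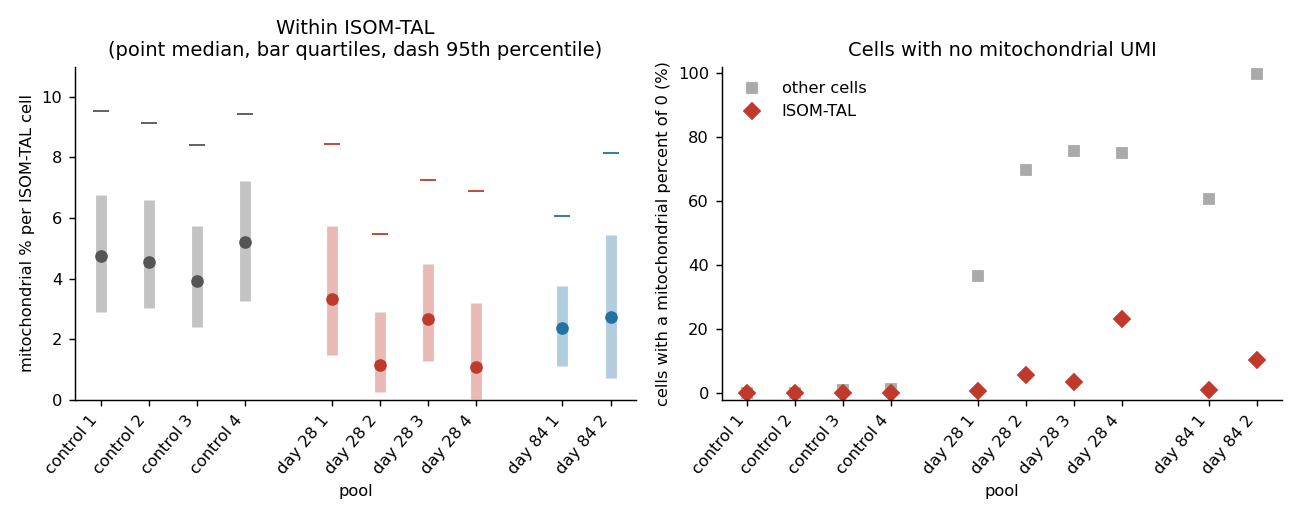
Left, mitochondrial percent per ISOM-TAL cell by pool, with the median as a point, the quartiles as a bar and the 95th percentile as a dash; right, percent of cells with a mitochondrial percent of 0, for ISOM-TAL (red diamonds) and all other cells (grey squares). The median of ISOM-TAL lay between 3.91% and 5.20% in controls and between 1.09% and 3.34% after R-UUO, and ISOM-TAL cells at 0 stayed at or below 23.1% where other cells ranged from 36.5% to 99.6%.

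ISOM-TAL cells with a mitochondrial percent of exactly 0 appeared only in the pools after R-UUO. None of the 522, 1702, 551 and 455 control cells was at 0, which allows shares of up to 0.575%, 0.176%, 0.544% and 0.659% for counting error only. At day 28 there were 4 (0.581%), 30 (5.79%), 18 (3.6%) and 55 (23.1%) such cells, and at day 84 there were 3 (1.09%) and 79 (10.2%). The share thus spanned a wide range among pools of a condition. On the log2 odds scale with 0.5 cells added it was higher by 6.0 at day 28 (SE 2.14, limma adjusted p = 0.00596, exact permutation p = 0.0286) and by 5.72 at day 84 (SE 2.63, limma adjusted p = 0.0314, exact permutation p = 0.0667). These sizes depend on the cells added, since every control pool is at 0. At both times 100% of the 17 clusters passed, so a gain of such cells was no mark of ISOM-TAL. The call at day 84 was lost without control pool 1, control pool 2 or day 84 pool 2 (highest limma adjusted p = 0.0651).

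Beside the other cells of its pool, ISOM-TAL had few cells at 0. Other cells were at 0 in 0.0177% to 1.21% of cells in controls, 36.5%, 69.8%, 75.7% and 75.1% at day 28, and 60.7% and 99.6% at day 84. Relative to them the log2 odds in ISOM-TAL were -3.57 against control at day 28 (SE 1.32, limma adjusted p = 0.194, with 0.0% of clusters called) and -7.26 at day 84 (SE 1.62, limma adjusted p = 0.00176, with 17.6% of clusters called). The day 28 pools overlapped the controls in this measure and the day 84 pools did not. In controls no ISOM-TAL cell was at 0, so the added 0.5 cells and the cell number set the control side of this measure. With so few other cells at 0 there, a larger deficit in controls could not have shown. In OSOM-TAL_a 56.2% to 98.5% of cells were at 0 at day 28, and 85.3% and 99.0% at day 84. InjuredLOH had 29.2% to 59.4% at day 28, and 38.8% and 99.5% at day 84. Some clusters had fewer cells at 0 than ISOM-TAL. In day 28 pool 1 PT-S2, a proximal tubule cluster, was at 0.466% against 0.581% in ISOM-TAL. In day 28 pool 4 ISOM-TAL, at 23.1%, ranked 6 of 25 clusters, lowest first, with PT-S2 at 0%. In the other pools after R-UUO it ranked 1.

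Cells at 0 were shallow cells in part. In all 6 pools after R-UUO the median UMI count of ISOM-TAL cells at 0 was below that of the rest, by the least in day 28 pool 1 (5836 against 6767) and by the most in day 28 pool 3 (746 against 6277.5). Under 1500 UMIs, 31 of 63 cells at day 28 and 48 of 81 at day 84 were at 0, and 0 of 157 in controls. At 6000 UMIs and above the counts were 9 of 1037, 10 of 190 and 0 of 1010. The share at 0 was thus highest in the shallowest cells at both times, and none of the control cells lacked mitochondrial UMIs in any of these ranges of depth.

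At matched depth, cells of 1500 to 3000 UMIs, the day 28 pools held between 1.85% and 60.5% cells at 0 and the day 84 pools 0 and 4.66%. The difference was 6.16 at day 28 (log2 odds, SE 1.84, limma adjusted p = 0.00160, 100% of 10 clusters called) and 2.95 at day 84 (SE 2.25, 95% interval -1.53 to 7.44, limma adjusted p = 0.193, 90.0% called). Between 3000 and 6000 UMIs, a window added after the values were seen, the day 28 difference was 3.38 and did not pass (limma adjusted p = 0.0733).

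The share of ISOM-TAL cells addresses whether the inner stripe limb lost cells, as far as a dissection that varied between pools allows. ISOM-TAL made up 2.67%, 6.99%, 3.82% and 2.24% of all cells in the control pools, 5.29%, 3.69%, 3.03% and 1.53% at day 28, and 1.40% and 3.25% at day 84. Values of the conditions overlapped, with the highest value in control pool 2. On the log2 odds scale the difference was -0.21 at day 28 (SE 0.514, 95% interval -1.38 to 0.95, limma adjusted p = 0.689) and -0.76 at day 84 (SE 0.630, 95% interval -2.19 to 0.67, limma adjusted p = 0.307). Over the 25 clusters, 88.0% passed at day 28 and 48.0% at day 84. These intervals hold a loss of more than 1 log2 unit as well as no loss.

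Among LOH cells alone, the share was 7.14%, 15.6%, 9.08% and 5.86% in the control pools, 13.7%, 10.1%, 8.14% and 3.74% at day 28, and 3.74% and 8.19% at day 84. Again no group stood clear of another. The differences were -0.13 at day 28 (95% interval -1.28 to 1.02) and -0.72 at day 84 (95% interval -2.12 to 0.68, limma adjusted p = 0.323), while 85.7% and 71.4% of the 7 LOH clusters passed. Between day 84 and day 28 it differed by -0.59 (95% interval -1.99 to 0.81, limma adjusted p = 0.367), with 28.6% of the LOH clusters past the threshold. The sign at day 28 turned to 0.38 when cells above 5% mitochondrial reads were left out and to 0.32 when InjuredLOH was left out of the denominator, with no call in either. A filter at 5% removes ISOM-TAL cells of the controls above all, given the shares above that line.

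Among the 3 thick limb clusters the share fell. ISOM-TAL made up 40.7%, 46.7%, 38.7% and 34.3% of thick limb cells in the control pools, 24.1%, 20.5%, 20.9% and 11.4% at day 28, and 11.8% and 16.4% at day 84. No pool after R-UUO reached a control pool. The log2 odds changed by -1.54 at day 28 (SE 0.394, limma adjusted p = 0.00123, exact permutation p = 0.0286, 66.7% of the 3 clusters called) and by -2.04 at day 84 (SE 0.483, limma adjusted p = 5.77e-04, exact permutation p = 0.0667, 100% called). The 3 shares sum to all thick limb cells, so a rise in any lowers the others, and OSOM-TAL_b rose from 2.96% to 12.7% of thick limb cells in controls to 24.7% to 36.9% at day 28 and 57.5% and 58.1% at day 84. The paper states that variable outer medulla in its dissections limits how well inner and outer stripe cells can be counted. Proximal tubule clusters also rose per ISOM-TAL cell at day 28, as given below. Whether the fall came from lost ISOM-TAL cells or from the dissection was not tested.

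**Figure D3:**
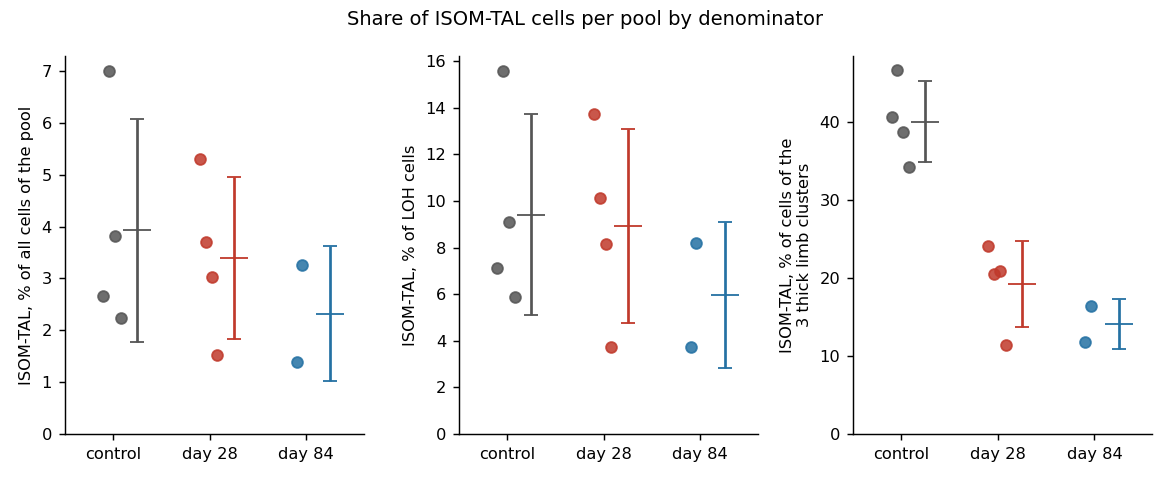
Share of ISOM-TAL cells in each pool among all cells, among LOH cells and among the cells of the 3 thick limb clusters; points are pools and the bars beside them the mean with SD (n = 4, 4 and 2 pools). The groups overlap in the left and middle panels, and in the right panel the controls (34.3% to 46.7%) lie above all pools after R-UUO (11.4% to 24.1%).

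Other cells were also counted per ISOM-TAL cell, so that the sum of all cells of a pool does not enter. Control pools held 1.36 ± 0.354 (SD, n = 4) OSOM-TAL_a cells for each ISOM-TAL cell, day 28 pools 2.86 ± 1.54 (SD, n = 4) and day 84 pools 2.06 ± 0.673 (SD, n = 2). The log2 ratio differed by 0.98 at day 28 (95% interval -0.39 to 2.35, limma adjusted p = 0.212) and by 0.60 at day 84 (95% interval -1.07 to 2.28, limma adjusted p = 0.606), neither past the spread between pools. OSOM-TAL_b went from 0.164 ± 0.0953 (SD, n = 4) cells per ISOM-TAL cell to 1.79 ± 0.657 (SD, n = 4) and 4.21 ± 0.993 (SD, n = 2), a rise of 3.57 at day 28 and of 4.85 at day 84 (limma adjusted p = 2.33e-06 and 3.67e-07). InjuredLOH rose from 0.0399 ± 0.0204 (SD, n = 4) to 3.97 ± 3.73 (SD, n = 4) and 4.19 ± 4.82 (SD, n = 2), by 6.33 and 6.07 (limma adjusted p = 4.35e-15 and 2.92e-10). Its 2 day 84 pools lay far apart, at 7.60 and 0.781. All 24 ratios had the same standard error (0.692 at day 28, 0.847 at day 84). The limma p-values thus rest on a pooled spread and not on that of OSOM-TAL_b or InjuredLOH alone. For both clusters the exact permutation test gave p = 0.0286 at day 28 and 0.0667 at day 84.

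Over all 24 other clusters, 62.5% of the ratios passed at day 28, 9 higher and 6 lower. The 6 that fell relative to ISOM-TAL were ATL, IM-TL, IM-CD, deepIM-CD, Fib and EndoVR/papilla, whose labels are of the thin limbs, the inner medullary collecting duct, fibroblasts and the vasa recta and papilla, by -2.87 (EndoVR/papilla) to -1.61 (IM-TL). The 9 that rose were InjuredLOH, InjuredCD, OSOM-TAL_b, MyoFib, Immune and 4 proximal tubule clusters. At day 84, 41.7% passed, all 10 of them higher, and between day 84 and day 28 0.0% passed (limma; 4 had an unadjusted p below 0.05). Since ISOM-TAL is the divisor of all 24 ratios, its spread enters each and they are not independent of each other. The exact permutation test gave an unadjusted p under 0.05 for 9 ratios at day 28.

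**Figure D4:**
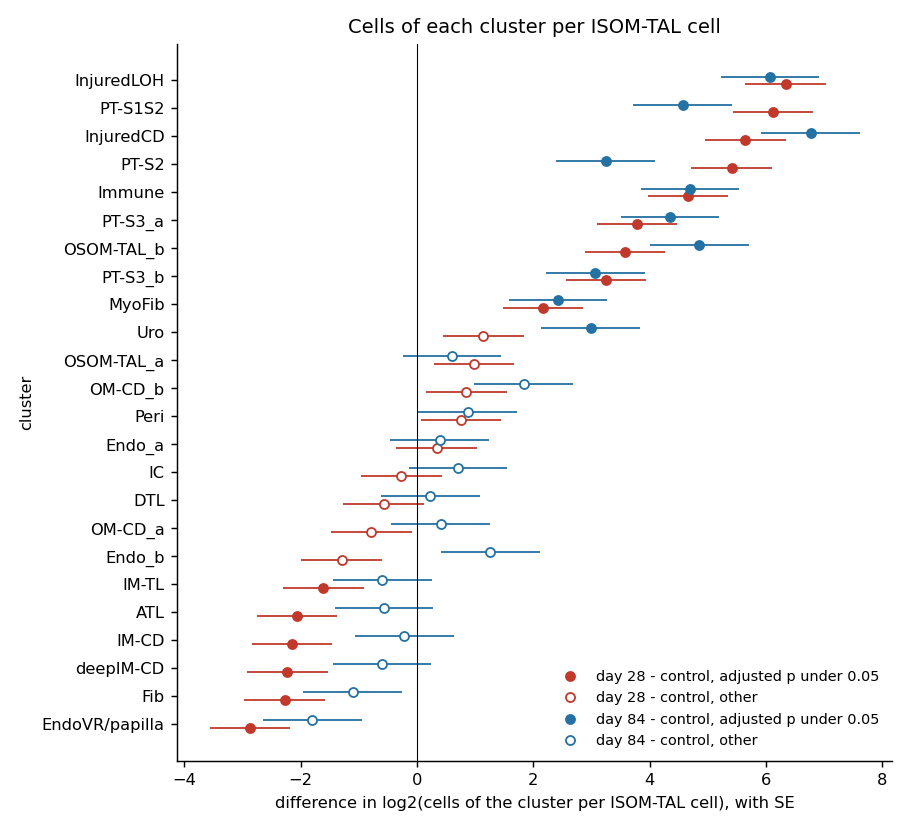
Difference from control in log2(cells of a cluster per ISOM-TAL cell), with standard errors, for 24 clusters at day 28 (red) and day 84 (blue); filled points passed a limma adjusted p of 0.05. InjuredLOH stood highest at day 28 (6.33) and EndoVR/papilla lowest (-2.87), with OSOM-TAL_a not past the threshold at either time.

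ISOM-TAL cells were among the richest in RNA. Their median UMI count was 2828, 4788.5, 3070 and 2409 in the control pools, 6767, 6482.5, 6140 and 5030 at day 28, and 2968.5 and 2876 at day 84. Other cells had medians of 1126, 1494, 1146 and 1192, then 3191, 2149, 1809 and 1550, then 902 and 738. Among clusters with at least 20 cells ISOM-TAL ranked 3 to 4 in controls, 1 to 2 at day 28 and 1 in both day 84 pools.

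At day 28 all 4 pools exceeded all controls, by 0.94 on the log2 scale (1.92-fold, SE 0.247, limma adjusted p = 0.00167, exact permutation p = 0.0286), with 58.8% of clusters called. At day 84 the difference was -0.11 (95% interval -0.71 to 0.48, limma adjusted p = 0.706), with 52.9% called. Relative to the other cells of the pool, it was 0.17 at day 28 (SE 0.159, limma adjusted p = 0.333, 35.3% called) and 0.48 at day 84 (SE 0.194, limma adjusted p = 0.0798, 11.8% called). The median of the other cells depends on the mix of clusters in a pool as well as on the depth of the run. The median over all other cells was likewise above every control pool in all 4 day 28 pools, which does not say that each cluster rose, and at day 84 both pools lay above all controls in the relative measure without passing the threshold. Against the other LOH cells the day 84 difference was 0.49 and passed (limma adjusted p = 0.0115). OSOM-TAL_a had median UMI counts of 1381 to 1694 in controls, 2245 to 3878 at day 28, and 966 and 882.5 at day 84. Like ISOM-TAL it was higher than controls at day 28 (0.86, limma adjusted p = 0.00233). Unlike ISOM-TAL it was lower at day 84 (-0.71, limma adjusted p = 0.0437).

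**Figure D5:**
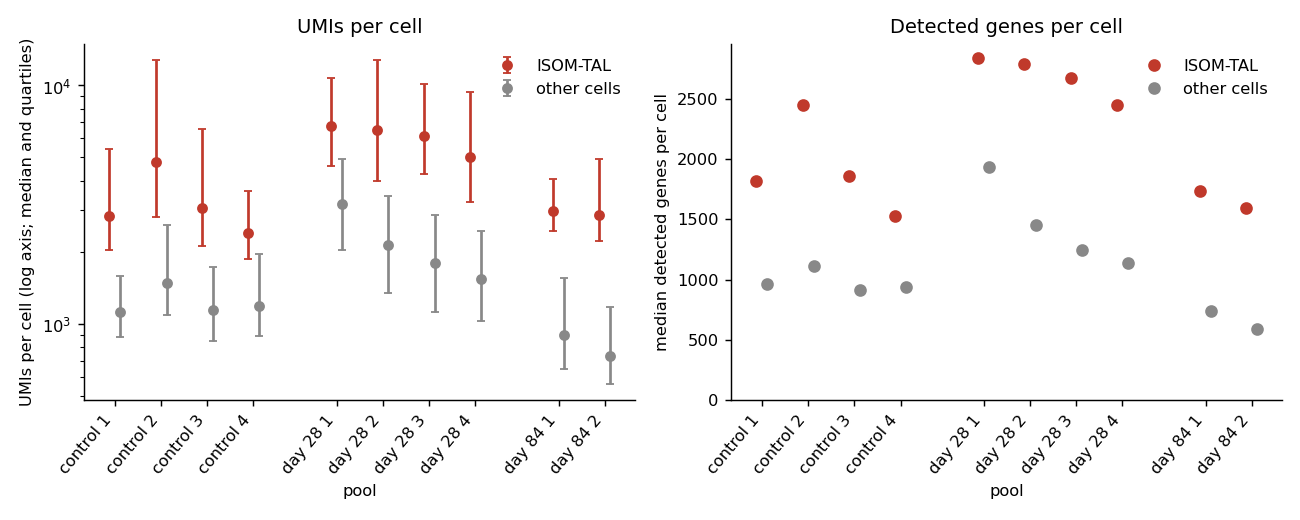
Left, UMIs per cell by pool (log axis; median with quartiles); right, median detected genes per cell; ISOM-TAL in red and all other cells in grey. The ISOM-TAL median exceeded that of other cells in all 10 pools, with the 4 day 28 pools highest (5030 to 6767 UMIs).

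Detected genes followed the UMIs. The median ISOM-TAL cell had 1819, 2451, 1864 and 1531 detected genes in the control pools, 2847, 2796.5, 2680.5 and 2449.5 at day 28, and 1738.5 and 1593 at day 84. Day 28 pool 4 fell just below control pool 2, and the other day 28 pools were above all controls. The difference was 0.51 at day 28 (log2, SE 0.190, limma adjusted p = 0.0200, exact permutation p = 0.0571, 58.8% called), and it was lost without control pool 1, 3 or 4 or without day 28 pool 2 (highest limma adjusted p = 0.109). At day 84 the difference was -0.18 (limma adjusted p = 0.433, 76.5% called). Among cells of 1500 to 3000 UMIs the differences were -0.11 at day 28 (95% interval -0.27 to 0.04, limma adjusted p = 0.266, 30.0% called) and 0.04 at day 84 (95% interval -0.16 to 0.23, limma adjusted p = 0.781, 0.0% called). In that range, which at day 28 holds 30 to 54 cells a pool from the shallow end of the cluster, no gain in detected genes was detectable. In the added window of 3000 to 6000 UMIs the day 84 cells had fewer genes by -0.22 (limma adjusted p = 0.00342).

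Cells with very high UMI counts varied in number between pools. ISOM-TAL cells above 20000 UMIs numbered 26, 295, 63 and 10 in the control pools, 63, 61, 50 and 17 at day 28, and 3 and 6 at day 84. As a share of ISOM-TAL this was 4.98%, 17.3%, 11.4% and 2.20% in the control pools, 7.14% to 11.8% at day 28, and 1.09% and 0.778% at day 84. Control pool 2 was also the pool with the largest share of ISOM-TAL cells, and dropping from each pool its top 5% of cells by UMIs ended none of the calls that were recomputed that way.

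Between the time points, the median UMI count and detected genes of ISOM-TAL were lower at day 84 than at day 28, by -1.05 and -0.69 on the log2 scale (limma adjusted p = 7.93e-04 and 0.00349), but 100% of the 17 clusters passed in both measures. Relative to the other cells of the pool, the UMI difference was 0.31 (limma adjusted p = 0.306, 0.0% called). The mitochondrial percent differed by 0.49 (limma adjusted p = 0.831, 0.0% called), and the log2 odds of cells at 0 by -0.28 (limma adjusted p = 0.914, 0.0% called). The share of ISOM-TAL among all cells differed by -0.55 (95% interval -1.98 to 0.88, limma adjusted p = 0.483, 8.0% called), and among thick limb cells by -0.50 (95% interval -1.50 to 0.50, limma adjusted p = 0.313, 66.7% called). With 2 pools at day 84, a fall of 1 log2 unit in either share lies within its interval.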

How the data were processed

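The authors prepared the Flex libraries, and the submitters' processing notes name Cell Ranger 7.1 and mm10. By the study's methods, cells with under 300 detected genes or over 10% mitochondrial reads were left out, ambient RNA was corrected with SoupX, doublets were removed with scDblFinder and by mixed signatures, and clusters came from Seurat. For each cell the authors deposited a corrected UMI count (whole counts, but fractional expected counts in control pool 1), a count of detected genes, a mitochondrial percent, and labels of pool, cell type and cluster.

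Pool values were computed with Python 3.11.15 and pandas 2.3.3 and drawn with matplotlib 3.10.9. They were compared with limma 3.58.1 in R 4.3.3 (lmFit, eBayes, 3 conditions in 1 fit, two-sided, Benjamini-Hochberg over the clusters fitted, threshold 0.05), beside an exact permutation test. In several measures the named clusters had the same standard error, so limma used a pooled spread there. These were the ratios, thick limb shares, median UMIs, detected genes, shares at 0 and the mitochondrial percent relative to other cells. Shares were log2 odds with 0.5 cells added, mitochondrial percents log2(percent + 0.01), and depth measures were fitted for clusters with at least 20 cells in every pool. Shares of 0 were given a limit of 3 cells of the total. The fits were tested on simulated data, where a change of 2 log2 units in the mitochondrial percent relative to other cells was recovered in size but seldom called, so that a missed call in that measure says little. Depth per pool is given as median UMIs, and precision is limited by how many pools there are.

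The clusters and measures were chosen with earlier results of these data known. ISOM-TAL, OSOM-TAL_a, OSOM-TAL_b and InjuredLOH are named with values, and others where they lead a rank or pass the ratio test. The window for matched depth was first set at 1000 to 2000 UMIs, which left ISOM-TAL with under 20 cells in 3 day 28 pools, so the listed alternative of 1500 to 3000 UMIs was used. The window of 3000 to 6000 UMIs, the mitochondrial percent relative to other cells, each day 84 pool alone for the percent kept, and the 2 single filters were added after the data were seen. Other alternatives were stricter filters (at least 500 genes and at most 5% mitochondrial), no cells of the top 5% of UMIs, other denominators, references and constants, and each pool left out.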

Additional observations from a re-analysis of the deposited data

Results flagged for a closer look

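The median UMI count of ISOM-TAL differed between day 84 and day 28 by -1.05 (log2), being lower at day 84, and the median number of detected genes by -0.69, in a test of the 2 effects against each other with limma. In both measures 100% of the 17 clusters passed, and day 84 pools of all cells were shallower.

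Control pool 2 stood far from the other control pools in the log2 odds of ISOM-TAL cells with a mitochondrial percent of 0, at -11.73, and among cells of 1500 to 3000 UMIs at -9.79. All 4 control pools have 0 such cells, so these log2 odds follow from the number of ISOM-TAL cells and the 0.5 cells added, and pool 2 has the most, 1702. Chance alone would mark about 1.1 of the 22 groups of pools looked at in this way.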

How the results depend on the processing

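Of 655 values recomputed under alternatives, 588 kept their direction and their side of the threshold, 24 turned direction, 22 lost a call, 17 gained one and 4 counts moved. The shares are the least settled: dissection, filter and denominator each move them, and 2 pools at day 84 limit every statement on that time. Fractional counts in control pool 1 and the depth of the runs were taken as deposited. The cause of these moves was not tested. No paired analysis was possible because the pool numbers only name pools and the labels pair none.

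With at least 500 genes and at most 5% mitochondrial reads, the share of LOH cells differed by 0.38 at day 28 and 0.13 at day 84, the share of all cells by 0.27 and 0.0327, the relative UMI count between time points by -0.0447, and the relative share at 0 by -4.44 at day 28 (limma adjusted p = 0.0286). With the 5% filter alone the day 28 shares differed by 0.38 (LOH cells) and 0.26 (all cells). The day 28 share was 0.32 without InjuredLOH and 0.0206 without proximal tubule cells, and among thick limb cells -1.54 at day 28 and -2.04 at day 84. Against other LOH cells the relative UMI count was -0.0079 at day 28, 0.49 at day 84 and 0.50 between time points, and without the 5% of cells with the most UMIs 0.50 at day 84. The mean of log2 genes gave 0.32 at day 28. Between 3000 and 6000 UMIs detected genes differed by -0.22 at day 84 and -0.16 between time points, and the share at 0 by 3.38 at day 28. The mitochondrial percent at day 28 was -1.16 with 0.1 added.

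In the exact permutation test the day 28 mitochondrial percent (-1.19) passed, and detected genes at day 28 (0.51) did not. Comparisons with day 84 cannot pass it, so UMIs (-1.05) and genes (-0.69) between time points, the share at 0 (5.72), the relative share at 0 (-7.26), the relative mitochondrial percent (5.68) and the ratios of OSOM-TAL_b (4.85) and InjuredLOH (6.07) at day 84 lost their calls, and 9 ratios at day 28 and 0 at day 84 had an unadjusted p under 0.05.

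With each pool left out in turn, the share of LOH cells ranged from -0.41 to 0.27 at day 28 (positive without control pool 2 or day 28 pool 4) and from -1.19 to 0.0090 between time points (positive without day 84 pool 1). The share of all cells ranged from -0.48 to 0.13 and from -1.17 to 0.0723 with the same pools. UMIs at day 84 ranged from -0.25 to 0.0847 (positive without control pool 2) and relative to other cells from 0.36 to 0.60 (past the threshold without control pool 2 or day 28 pool 1). Detected genes at day 28 ranged from 0.41 to 0.64, and at matched UMIs from -0.028 to 0.0997 at day 84 (negative without day 84 pool 1) and from 0.0854 to 0.21 between time points (past the threshold without day 28 pool 4). The mitochondrial percent at day 28 ranged from -1.39 to -0.98 (past the threshold without day 28 pool 1). Relative to other cells it ranged from 2.38 to 2.89 at day 28 and from 1.03 to 5.06 between time points (past the threshold without day 84 pool 1). The share at 0 ranged from 4.14 to 7.30 at day 84 and from -1.87 to 1.30 between time points (positive without day 28 pool 4 or day 84 pool 1), and at matched UMIs from 1.09 to 4.82 at day 84 (past the threshold without day 84 pool 1). The relative share at 0 ranged from -4.24 to -2.79 at day 28 (past the threshold without either day 84 pool) and from -5.81 to -1.59 between time points (past the threshold without day 84 pool 1). Between time points 0 to 3 ratios passed, 3 without day 28 pool 4 and 1 without day 84 pool 2, and the ratio of InjuredLOH ranged from -1.91 to 1.37 (positive without either of these). A condition left with 1 pool was assumed to vary like the others.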

Other observations

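In the Flex assay a droplet can hold cells of several pools, told apart by probe barcode. ISOM-TAL cells sat in a droplet barcode shared with another deposited cell in 54.5% to 60.0% of cases in control pools (other cells 54.0% to 61.2%), 41.2% to 49.6% at day 28 (47.2% to 49.9%), and 31.2% and 22.8% at day 84 (27.1% and 22.6%). Of the cells that shared a droplet with a control ISOM-TAL cell, 78 of 2341 (3.33%) were ISOM-TAL too, against 3.99% of the partners of other cells. At day 28 the partners were ISOM-TAL in 36 of 1155 cases (3.12%, against 3.18%) and at day 84 in 2 of 262 (0.763%, against 2.48%). ISOM-TAL cells thus did not share droplets with each other more often than other cells did with them. No test was run on these counts.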
